A study of Mus musculus with 6 samples.

Results

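Chemokines and their receptors were read as the 52 genes whose names in the array annotation follow the systematic pattern of the family (Ccl, Cxcl or Cx3cl with a number for ligands, and Ccr, Cxcr or Cx3cr with a number for receptors, Ccrl names left out), of 34797 gene names on the array. They comprised 34 ligands and 18 receptors, and 68 of the 55681 oligos of the array stood for them. The rule reads gene names and no measured value, although the family was picked with earlier results of these data known. RNA of 3 immortalized murine embryonic fibroblast (MEF) lines was labelled with 1 dye and hybridized, with 2 arrays per line. The wild type (WT) MEF carry the strain label W4, the MEF without the TIA1 gene (TIA1 KO MEF) are labelled BALB/c, and the MEF without the TIAR gene (TIAR KO MEF) are labelled C57BL/6. Genotype, strain and cell line therefore cannot be told apart in any difference given here. All 6 arrays lay on 1 slide, with the TIA1 KO arrays in slide row 2 and the other 4 in slide row 1, so that the slide row cannot be told apart from the loss of TIA1.

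Chemokines are small secreted proteins that draw cells along a gradient by binding receptors of the G protein-coupled type, and fibroblasts release many of them when they sense infection or tissue damage. Most inflammatory ligand genes are switched on by NF-kappa B or by interferon-regulated factors, while a homeostatic ligand such as Cxcl12 is made by resting stromal cells. TIA1 and TIAR (gene name Tial1) are RNA-binding proteins that recognise U-rich and AU-rich stretches of RNA, a kind of sequence that many short-lived cytokine and chemokine transcripts carry.

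Each value below is the authors' normalized log2 value of a gene's brightest oligo, the one with the highest mean over the 6 arrays. It can be compared between arrays for the same oligo, and not between oligos. A gene was called when limma gave a Benjamini-Hochberg adjusted p under 0.05 over all oligos together with a fold above 2, and errors are standard errors of a comparison of 2 arrays with 2 arrays. Both knockout lines were compared with the same WT arrays. In RNA from whole cultures, fewer cells of a type and less RNA per cell cannot be told apart.

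The labels were checked on the targeted genes. The brightest Tia1 oligo read 10.57 and 8.71 in WT cells and 7.52 and 8.38 in TIA1 KO cells, a difference of -1.69 ± 0.75 that did not pass the test (adjusted p = 0.248). Of the other Tia1 oligos, one gave -1.86 ± 0.53 in TIA1 KO cells (adjusted p = 0.15), and one went against the label, with 7.34 and 7.22 in WT cells, at background, and 8.15 and 8.61 in TIA1 KO cells (adjusted p = 0.107). The loss of Tia1 RNA was therefore not called by any oligo in the samples labelled TIA1 KO. By western blot and RT-PCR, the paper reports that protein and mRNA of TIA1 and TIAR were absent from the respective knockout lines. The brightest Tial1 oligo read 13.71 and 13.29 in WT cells and 9.80 and 11.78 in TIAR KO cells (-2.71 ± 0.62, adjusted p = 0.0668), and the other Tial1 oligo was called lower (-1.47 ± 0.27, adjusted p = 0.0339). Of 10 fibroblast markers, 6 were well above background in both WT samples, 7 in both TIA1 KO samples and 9 in both TIAR KO samples. Pdgfra was at background on both WT arrays and Thy1 and Dcn each on 1 of them. The first TIA1 KO array had a median spot intensity of 458, against 119 to 218 on the other arrays, and the correlation of the TIA1 KO arrays with each other was 0.956, against 0.989 and 0.986 for WT and TIAR KO cells.

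Of the 52 genes, 12 were well above background on all 6 arrays, and all 12 were ligands. These were Ccl2, Ccl5, Ccl7, Ccl9, Ccl17, Ccl25, Cx3cl1, Cxcl1, Cxcl5, Cxcl10, Cxcl11 and Cxcl12. A further 10 genes reached that level on both arrays of at least 1 line, the ligands Ccl6, Ccl8, Ccl19, Ccl27a, Cxcl15 and Cxcl16 and the receptors Ccr7, Ccr8, Cxcr6 and Cxcr7. On no array was a signal well above background seen for 25 genes, 12 ligands and 13 receptors, beside 12329 of all 34797 gene names. The values of the 25 genes lay between 6.18 and 9.72 with a median of 6.74. The highest was Ccr2 on the first TIA1 KO array, where the second read 6.96. The receptors among these 25 genes included Ccr1, Ccr2, Cxcr2, Cxcr3 and Cxcr4, the usual receptors of several ligands that these cells did express. The other 5 genes (Ccl12, Ccl20, Ccl22, Cxcl3 and Cx3cr1) passed on single arrays only.

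In all, 14 genes were called in at least 1 of the 3 comparisons and 38 in none. In TIA1 KO cells 3 members rose and 5 fell, where 2.05% of all gene names rose and 0.891% fell. In TIAR KO cells 5 members rose and 8 fell, where 4.23% of all gene names rose and 2.76% fell. The median log2 fold change of the 52 members was 0.10 in TIA1 KO cells and 0.005 in TIAR KO cells, beside -0.095 and -0.015 over all gene names.

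**Figure D1:**
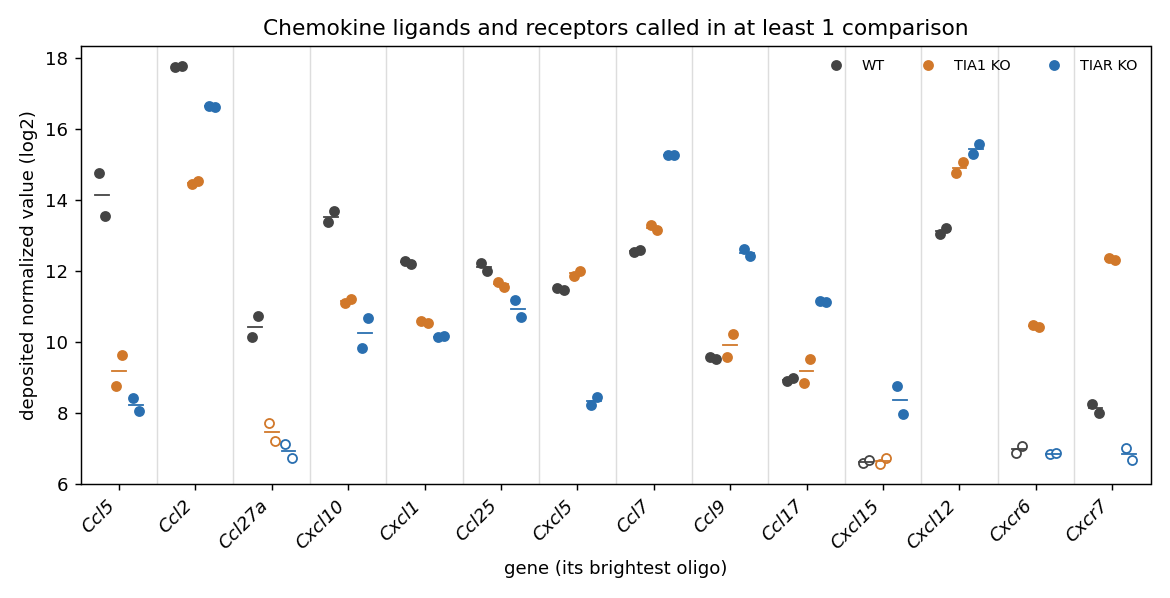
The 14 chemokine ligands and receptors called in at least 1 comparison, with the deposited log2 value of the brightest oligo on each array (points, 2 per line) and the mean of each line (bar). Open points mark a line in which the oligo was not well above background on both arrays. Ccl5, Ccl2, Ccl27a, Cxcl10 and Cxcl1 are highest in WT cells, Cxcl12 is lowest in WT cells, and Cxcr6 and Cxcr7 stand out in TIA1 KO cells. Levels of different genes are not comparable.

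The upstream sequences of 5 called genes are shown because they stand for the patterns seen: Cxcl1 and Cxcl10 fell in both knockout lines, Cxcl12 rose in both, Ccl9 rose in TIAR KO cells and Cxcr7 (RefSeq symbol Ackr3) moved in opposite directions. Each is the 250 bases before a RefSeq start on GRCm38.p6, written 5′ to 3′ on the strand of the gene. Capitals mark matches, on either strand, to GGNNNTTCC (a kappa B-like core), GAAANNGAA (an interferon response-like core) or TATAAA.
Cxcl1 (chr5:90890995-90891244, + strand): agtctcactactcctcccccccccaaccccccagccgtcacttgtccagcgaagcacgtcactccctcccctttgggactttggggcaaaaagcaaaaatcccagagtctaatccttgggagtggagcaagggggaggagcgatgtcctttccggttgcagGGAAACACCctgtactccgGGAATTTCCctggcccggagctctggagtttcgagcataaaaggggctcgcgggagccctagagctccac
Cxcl10 (chr5:92348890-92349139, - strand): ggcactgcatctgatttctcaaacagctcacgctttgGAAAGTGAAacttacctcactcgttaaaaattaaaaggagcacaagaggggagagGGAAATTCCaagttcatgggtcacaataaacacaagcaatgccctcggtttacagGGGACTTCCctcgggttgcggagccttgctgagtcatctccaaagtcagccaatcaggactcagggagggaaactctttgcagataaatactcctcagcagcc
Cxcl12 (chr6:117168285-117168534, + strand): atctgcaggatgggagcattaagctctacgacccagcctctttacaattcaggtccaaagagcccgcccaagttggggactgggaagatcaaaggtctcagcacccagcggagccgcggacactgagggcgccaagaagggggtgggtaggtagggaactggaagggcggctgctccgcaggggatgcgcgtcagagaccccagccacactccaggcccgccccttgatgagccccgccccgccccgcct
Ccl9 (chr11:83578637-83578886, - strand): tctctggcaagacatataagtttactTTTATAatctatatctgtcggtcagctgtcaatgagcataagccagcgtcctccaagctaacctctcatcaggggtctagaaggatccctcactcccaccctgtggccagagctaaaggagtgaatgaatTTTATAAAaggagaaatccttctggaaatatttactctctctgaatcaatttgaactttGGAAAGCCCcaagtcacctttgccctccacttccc
Cxcr7 (chr1:90203730-90203979, + strand): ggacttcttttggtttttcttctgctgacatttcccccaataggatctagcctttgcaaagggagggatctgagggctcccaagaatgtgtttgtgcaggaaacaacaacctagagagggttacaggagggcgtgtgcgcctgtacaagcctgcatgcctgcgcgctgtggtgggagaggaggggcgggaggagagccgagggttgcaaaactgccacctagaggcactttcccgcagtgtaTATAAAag
The Cxcl1 window held 2 kappa B-like matches, beginning 89 and 70 bases before the start. The Cxcl10 window held 2 kappa B-like matches, 158 and 103 bases before the start, and 1 interferon response-like match 213 bases before it. The Cxcl12 window held none of the motifs. Ccl27a, which also fell in both lines and is not shown, had 3 windows, all without any of the motifs. The windows of Cxcl2, Cxcl3 and Cxcl9, which were not called, held 2 kappa B-like matches each. The Ccl9 window held 1 kappa B-like match 35 bases before the start and TATAAA matches at 224, 94 and 92 bases, the last pair being overlapping matches on opposite strands. The Cxcr7 window held TATAAA alone, 8 bases before the start. Windows were found for 37 of the 52 members, 36 by symbol and 1 by synonym, and 10 of the 14 called members were among them. The kappa B-like letters lay in 13 of the 41 member windows, beside 15.7% of 32817 windows of all genes. The interferon response-like letters lay in 8 of the 41, beside 7.12%, and TATAAA in 11, beside 12.4%. A match describes letters and does not show that a factor binds there.

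Ligands that fell in both knockout lines were Ccl5, Ccl2, Cxcl10, Cxcl1 and Ccl27a. Ccl5, which attracts T cells and monocytes, is read by an oligo at chromosome 11, 83339296 to 83339355 (mm9, minus strand). It gave 14.75 and 13.54 in WT cells, 8.74 and 9.62 in TIA1 KO cells and 8.41 and 8.03 in TIAR KO cells. All 4 knockout arrays lay far below both WT arrays, and the WT arrays differed by more than for any other member. Ccl5 fell 31.2-fold in TIA1 KO cells (log2 fold change -4.96 ± 0.56, adjusted p = 0.048) and 60.8-fold in TIAR KO cells (-5.92 ± 0.41, adjusted p = 0.00121), the largest falls among the members.

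Ccl2, the main monocyte attractant of fibroblasts, was read from 10 spots of 1 oligo at chromosome 11, 81850650 to 81850709. Its values were 17.74 and 17.77 in WT cells, 14.44 and 14.52 in TIA1 KO cells and 16.65 and 16.61 in TIAR KO cells. The 3 lines were separate, with TIA1 KO cells lowest. The fall was 9.68-fold in TIA1 KO cells (-3.28 ± 0.15, adjusted p = 0.0112) and 2.18-fold in TIAR KO cells (-1.13 ± 0.15, adjusted p = 0.0126), and the second of these calls ended when any 1 of the 4 arrays was left out.

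Cxcl10, an interferon-induced ligand of Cxcr3 (chromosome 5, 92775781 to 92775840), read 13.37 and 13.67 in WT cells, 11.08 and 11.19 in TIA1 KO cells and 9.82 and 10.66 in TIAR KO cells. It fell 5.22-fold in TIA1 KO cells (-2.38 ± 0.18, adjusted p = 0.0254) and 9.71-fold in TIAR KO cells (-3.28 ± 0.31, adjusted p = 0.00335). The TIAR KO arrays were below the TIA1 KO arrays, but the difference between the knockouts did not pass the test (-0.90 ± 0.34, adjusted p = 0.248). The call in TIAR KO cells ended when any 1 of its 4 arrays was left out. A dimmer Cxcl10 oligo, at or near background in the knockouts, gave -1.18 and -1.10 and was not called. Of the other interferon-inducible CXC ligands, Cxcl11 read 17.94 and 17.45 in WT cells, 18.16 and 18.00 in TIA1 KO cells and 17.73 and 17.67 in TIAR KO cells, with no call. A second Cxcl11 oligo was not called either, with 11.92 and 12.13 in WT cells. It read 12.24 and 12.16 in TIA1 KO cells and 11.98 and 11.73 in TIAR KO cells. Cxcl9 was at background on every array, WT included, so that a fall could not have been measured. The RefSeq table lists Cxcl11 of the C57BL/6J reference as a transcribed pseudogene.

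Cxcl1, a neutrophil attractant of the ELR group (chromosome 5, 91321845 to 91321904), read 12.27 and 12.20 in WT cells, 10.57 and 10.53 in TIA1 KO cells and 10.13 and 10.15 in TIAR KO cells. The arrays of each line lay close together, and WT cells were above both knockouts. Cxcl1 fell 3.22-fold in TIA1 KO cells (-1.68 ± 0.14, adjusted p = 0.0321) and 4.27-fold in TIAR KO cells (-2.10 ± 0.15, adjusted p = 0.00148).

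Ccl27a, a skin chemokine known from keratinocytes, read 10.14 and 10.71 in WT cells, 7.70 and 7.21 in TIA1 KO cells and 7.12 and 6.71 in TIAR KO cells (chromosome 4, 41720610 to 41720669). It was well above background in WT cells only, so its fall was at least 7.84-fold in TIA1 KO cells (adjusted p = 0.0414) and at least 11.4-fold in TIAR KO cells (adjusted p = 0.0015). Such limits replace each value of the dim line by the lowest value that its array rated well above background, unless the oligo itself read higher. For Ccl27a the oligo read higher, so the limits equal the plain folds (log2 -2.97 ± 0.31 and -3.51 ± 0.26). Of the limits given here, only that of Cxcl15 against WT lies below its plain fold, which was 3.31. Both other Ccl27a oligos were called lower in both lines too. The gene has a near-identical copy, Ccl27b, on the same chromosome, and the oligos may read both.

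By the brightest oligos, Cxcl12 was the one ligand that rose in both knockout lines. It is the homeostatic stromal ligand of Cxcr4 and Cxcr7, and its brightest oligo lies at chromosome 6, 117131227 to 117131286. The values were 13.02 and 13.19 in WT cells, 14.76 and 15.05 in TIA1 KO cells and 15.28 and 15.58 in TIAR KO cells. Both WT arrays were below all knockout arrays. Cxcl12 rose 3.48-fold in TIA1 KO cells (1.80 ± 0.19, adjusted p = 0.0416) and 5.01-fold in TIAR KO cells (2.32 ± 0.18, adjusted p = 0.00191). The rise in TIA1 KO cells was 0.27 after scaling to a common array median, and then was not called. A second, dimmer Cxcl12 oligo (chromosome 6, 117125026 to 117125085) gave 0.57 in TIA1 KO cells and 0.36 in TIAR KO cells, with no call. This oligo is annotated to another RefSeq transcript of the gene and was well above background on all 6 arrays. The called rise is therefore that of 1 oligo and its transcript.

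By their brightest oligos, ligands that changed in TIAR KO cells without a call in TIA1 KO cells were Ccl9, Ccl7, Ccl17, Cxcl15, Cxcl5 and Ccl25. Of these, Ccl17, Cxcl15 and Ccl25 were not called between the knockouts themselves (limma, adjusted p = 0.0694, 0.105 and 0.22). Ccl9, a myeloid attractant that acts through Ccr1 (chromosome 11, 83388223 to 83388282), read 9.56 and 9.50 in WT cells, 9.57 and 10.22 in TIA1 KO cells and 12.60 and 12.41 in TIAR KO cells. It rose 7.86-fold in TIAR KO cells (2.98 ± 0.16, adjusted p = 0.000636). Ccl7, a monocyte attractant next to Ccl2 in the genome (chromosome 11, 81860656 to 81860715), read 12.53 and 12.59 in WT cells, 13.28 and 13.15 in TIA1 KO cells and 15.25 and 15.27 in TIAR KO cells. It rose 6.50-fold in TIAR KO cells (2.70 ± 0.15, adjusted p = 0.000685), while the TIA1 KO difference of 0.66 ± 0.15 was not called and was -0.91 under the common median. For both genes the TIAR KO arrays were above every other array.

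Ccl17, which draws T cells that carry Ccr4 (chromosome 8, 97335770 to 97335829), read 8.88 and 8.98 in WT cells, 8.84 and 9.50 in TIA1 KO cells and 11.13 and 11.11 in TIAR KO cells. It rose 4.56-fold in TIAR KO cells (2.19 ± 0.16, adjusted p = 0.00132). Cxcl15, an ELR ligand known from lung epithelium, was at background in WT cells (6.59 and 6.65) and TIA1 KO cells (6.55 and 6.71) and read 8.74 and 7.95 in TIAR KO cells, so that it was at least 2.97-fold higher than in WT cells (adjusted p = 0.0228). That call ended when any 1 array was left out.

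Cxcl5, an ELR ligand of Cxcr2 (chromosome 5, 91190490 to 91190549), read 11.50 and 11.44 in WT cells, 11.85 and 11.99 in TIA1 KO cells and 8.22 and 8.43 in TIAR KO cells. It fell 8.85-fold in TIAR KO cells (-3.14 ± 0.16, adjusted p = 0.000552), and the TIAR KO arrays were below all the others. In TIA1 KO cells its difference was 0.45 ± 0.15, which was not called and was -1.01 under the common median. Ccl25, the thymic and gut ligand of Ccr9, read 12.21 and 11.99 in WT cells, 11.69 and 11.54 in TIA1 KO cells and 11.16 and 10.68 in TIAR KO cells by its brightest oligo (chromosome 8, 4359916 to 4359975), a fall of 2.27-fold in TIAR KO cells (-1.18 ± 0.22, adjusted p = 0.0349) that also lost its call without any 1 array. The oligos of Ccl25 disagreed. One at chromosome 8, 4348678 to 4348737 was called lower in both knockout lines. It read 9.96 and 9.92 in WT cells, 8.02 and 8.35 in TIA1 KO cells, at background (at least 3.38-fold lower, adjusted p = 0.043), and 8.45 and 8.39 in TIAR KO cells (-1.52 ± 0.15, adjusted p = 0.00439). One at 4327833 to 4327892 read 7.92 and 8.18 in WT cells, 6.81 and 7.10 in TIA1 KO cells, at background and not called (adjusted p = 0.0949), and 9.31 and 9.25 in TIAR KO cells, called 1.23 higher.

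Among the measured ligands without a call was Cx3cl1, the membrane-bound fractalkine. It read 13.66 and 13.59 in WT cells, 13.35 and 13.38 in TIA1 KO cells and 13.71 and 13.78 in TIAR KO cells. Cxcl16, the ligand of Cxcr6, was well above background in TIAR KO cells only, with 8.01 and 8.13 against 7.18 and 6.99 in WT cells. Its plain fold of 1.98 was just short of the 2-fold threshold, so it was not called (limma, adjusted p = 0.0255). Ccl6, Ccl8 and Ccl19 were dim, with differences from WT cells between -0.92 and 0.69 that were not called, and Ccl19 also has near-identical copies on chromosome 4. By group of ligands, 1 of 5 ELR ligands fell in TIA1 KO cells, and 1 rose and 2 fell in TIAR KO cells. Of 3 interferon-inducible CXC ligands 1 fell in each line, and of 6 other CXC and CX3C ligands 1 rose in each. Of 7 monocyte and eosinophil CC ligands, 1 fell in TIA1 KO cells, and 1 rose and 1 fell in TIAR KO cells. The same counts held for the 5 genes Ccl3, Ccl4, Ccl5, Ccl6 and Ccl9. Of 8 lymphoid and epithelial CC ligands, 1 fell in TIA1 KO cells, and 1 rose and 2 fell in TIAR KO cells. Over all gene names 2.05% rose and 0.891% fell in TIA1 KO cells, and 4.23% rose and 2.76% fell in TIAR KO cells. The groups include the 12 ligands that were well above background on no array.

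**Figure D2:**
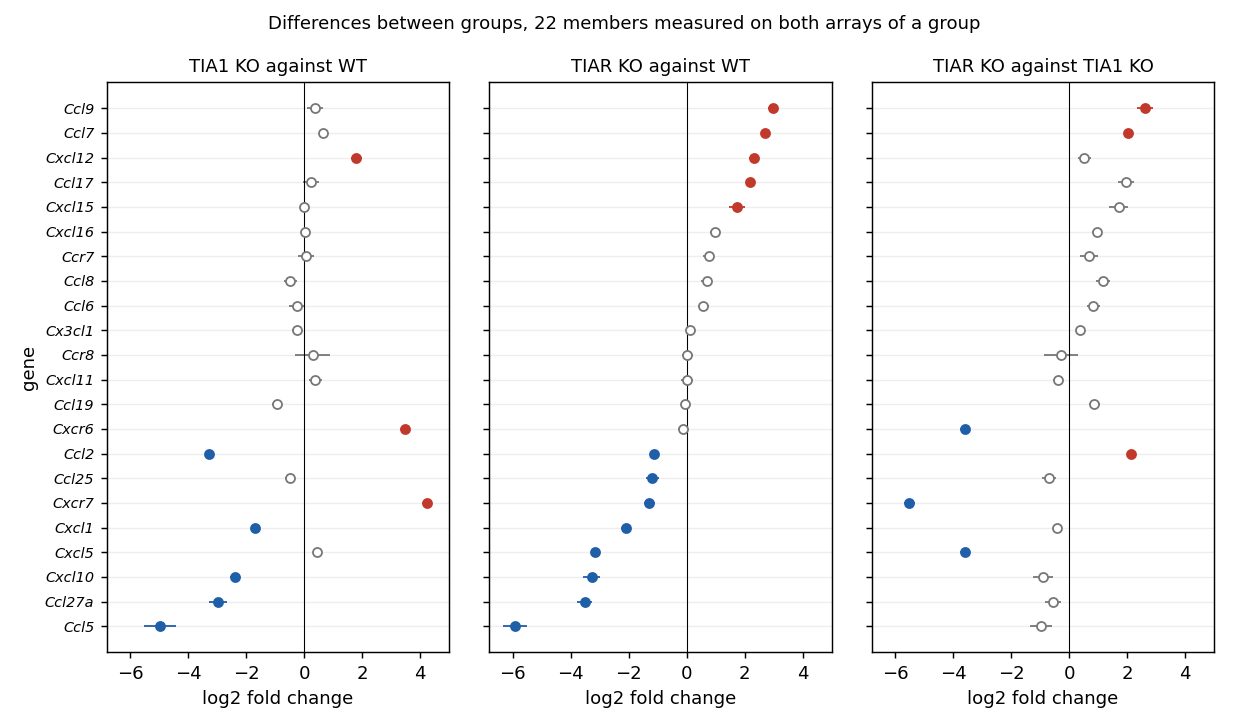
Log2 fold change of the 22 members that both arrays of some line rated well above background, in the 3 comparisons (points), with the standard error (bars; hidden where smaller than the point). Filled red points were called higher, filled blue points lower, and open points were not called. Ccl5 has the largest fall in both knockouts, and Cxcr7 is the gene with calls in opposite directions.

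Of the 18 receptors, 13 were well above background on no array. In TIA1 KO cells 2 receptors rose, where 2.05% of all gene names did. In TIAR KO cells 1 receptor fell, where 2.76% of all gene names did. Cxcr7, an atypical receptor that takes up Cxcl12 and removes it without signalling through G proteins, is read by 1 oligo at chromosome 1, 92111803 to 92111862. It gave 8.25 and 7.98 in WT cells, 12.36 and 12.31 in TIA1 KO cells and 7.0 and 6.66 in TIAR KO cells. The TIA1 KO arrays were far above the rest, and the TIAR KO arrays were at background. Cxcr7 rose 18.6-fold in TIA1 KO cells (4.22 ± 0.17, adjusted p = 0.0099) and was at least 2.44-fold lower in TIAR KO cells (adjusted p = 0.0198), a call that ended when any 1 array was left out.

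Cxcr6, the receptor of Cxcl16 and known from T and NK cells, read 6.87 and 7.07 in WT cells, 10.46 and 10.40 in TIA1 KO cells and 6.82 and 6.86 in TIAR KO cells (chromosome 9, 123720719 to 123720778). It was well above background in TIA1 KO cells only, at least 11.0-fold higher than in WT cells (adjusted p = 0.0117). A second Cxcr6 oligo, which overlaps the first, read 7.09 and 6.99 in WT cells and 8.72 and 9.70 in TIA1 KO cells and was not called. The other 2 receptors measured in a line, Ccr7 and Ccr8, were dim and not called, and none of the 10 Ccr genes was called in either knockout by limma (0 at an unadjusted p under 0.05 in TIA1 KO cells and 1 in TIAR KO cells).

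Set against each other, TIAR KO and TIA1 KO cells differed in 6 members by their brightest oligos. In TIAR KO cells 3 were higher, where 1.27% of all gene names were, and 3 were lower, where 1.55% were. Ccl9 was 6.11-fold higher (2.61 ± 0.29, adjusted p = 0.0441), Ccl2 4.44-fold higher (2.15 ± 0.16, adjusted p = 0.0216) and Ccl7 4.13-fold higher (2.04 ± 0.16, adjusted p = 0.0242) in TIAR KO than in TIA1 KO cells. Cxcl5 was 12.1-fold lower (-3.60 ± 0.18, adjusted p = 0.013), Cxcr6 at least 12.0-fold lower (adjusted p = 0.0121) and Cxcr7 at least 45.4-fold lower (adjusted p = 0.0114). A dimmer Ccl25 oligo (chromosome 8, 4327833 to 4327892), annotated to a non-coding RefSeq transcript, was also called. It was at least 5.01-fold higher in TIAR KO than in TIA1 KO cells (limma, adjusted p = 0.0251). These are tests of the difference between the knockouts itself. Of the 5 ligands that fell in both, Ccl2 alone was called between the knockouts by this test, and Cxcl12 differed by 0.52 ± 0.21 (adjusted p = 0.268).

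Neighbouring genes of the family often did not change together. Members whose oligos lay less than 200 kb apart formed 6 groups of at least 3 genes, and 27 of these genes are shown. In the first group on chromosome 11, Ccl2 and Ccl7 lie 10.0 kb apart, and in TIAR KO cells Ccl2 fell while Ccl7 rose. In the second, Ccl5 fell in TIAR KO cells and Ccl9, 48.9 kb away, rose, while Ccl3 and Ccl4 stayed at background. On chromosome 5 Cxcl5 and Cxcl1, 131 kb apart, fell in TIAR KO cells and Cxcl15 between them rose. Cxcl10 fell in both lines between Cxcl9, at background, and Cxcl11, which was not called. On chromosome 8 Ccl17 rose in TIAR KO cells with Ccl22 at background and Cx3cl1 without a call, and on chromosome 9 Cxcr6 rose in TIA1 KO cells among 4 Ccr genes of which none was well above background.

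**Figure D3:**
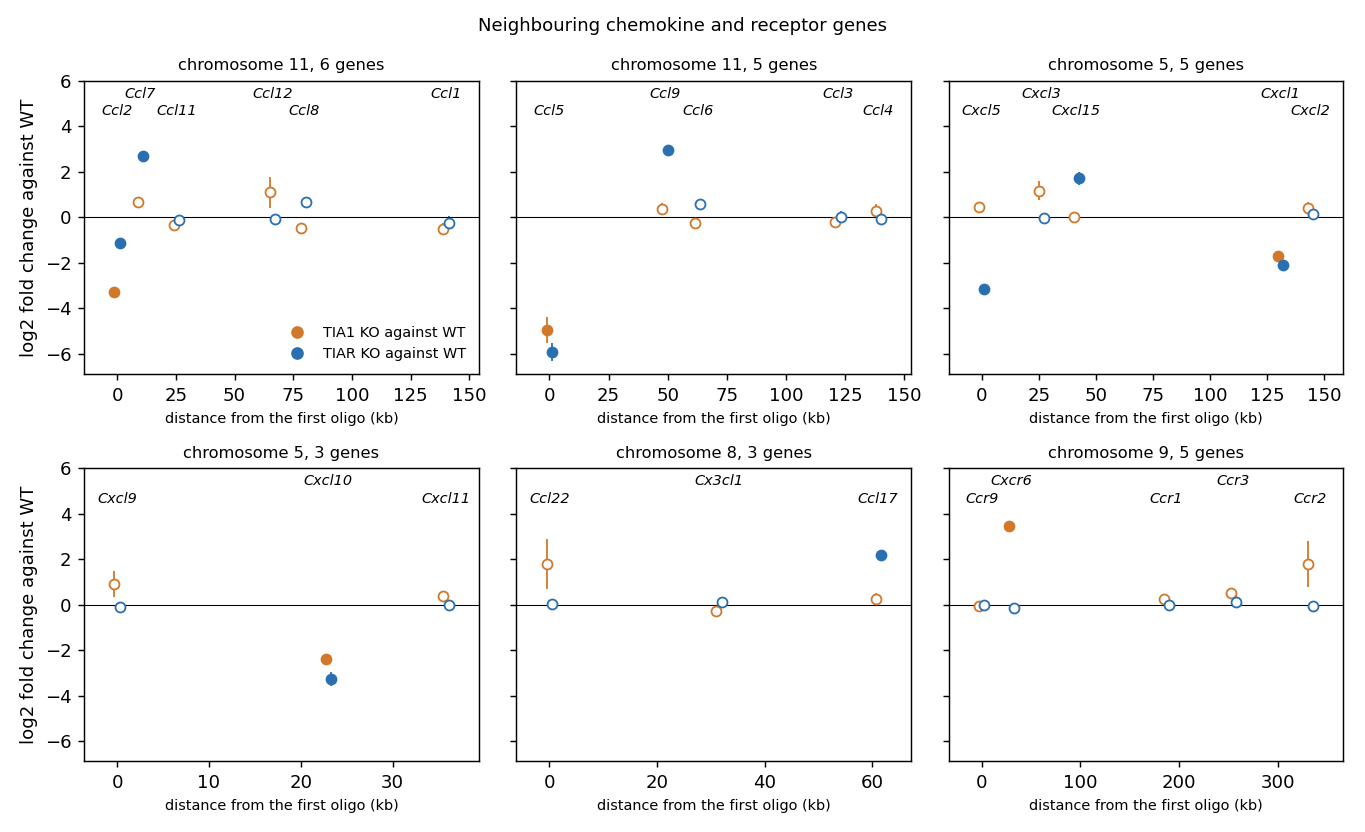
Log2 fold change against WT (vertical axis) of neighbouring chemokine and receptor genes by the distance of their oligos from the first one of the group (horizontal axis, kb, each panel to its own scale). Orange points are TIA1 KO and blue points TIAR KO cells, bars are standard errors, and filled points were called. In 3 of the 6 panels a called fall and a called rise in TIAR KO cells stand in the same panel.

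Other genes of chemokine signalling and of its control were counted in the same way, beside the shares of all gene names given above for each comparison and 9485 of the 34797 names at an unadjusted p under 0.05 in TIA1 KO cells and 7696 in TIAR KO cells. Of 10 further ligands and decoy receptors (such as Pf4, Ppbp and Ccrl2), limma called 0 in any comparison, with 5 at an unadjusted p under 0.05 in TIA1 KO cells and 2 each in TIAR KO cells and between the knockouts. Of these 10 genes, 7 were well above background on no array. Of 15 signalling genes behind the receptors, 5 were well above background on no array. In TIA1 KO cells 0 of the 15 were called (4 at an unadjusted p under 0.05), and in TIAR KO cells 1 was. This was Gnai1, a G protein alpha subunit that chemokine receptors use, which was at background in WT cells and rose to 8.57 and 8.91 (at least 3.36-fold higher, adjusted p = 0.0145). Of 10 binders of AU-rich RNA and decay factors, a list that holds Tia1 and Tial1 themselves, 0 were called (2 at an unadjusted p under 0.05 in TIA1 KO cells and 5 in TIAR KO cells), read from the brightest oligo of each gene, while the dimmer Tial1 oligo was called lower in TIAR KO cells as given above.

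Of 18 transcription factors and inhibitors that govern chemokine induction, 1 fell in TIA1 KO cells, and 1 rose and 2 fell in TIAR KO cells, with 8 and 9 at an unadjusted p under 0.05. Irf7, which drives interferon responses, read 8.81 on both WT arrays and was at background on all knockout arrays, at least 3.41-fold lower in TIA1 KO cells (adjusted p = 0.0456) and at least 3.29-fold lower in TIAR KO cells (adjusted p = 0.00374). Irf1 read 12.84 and 12.90 in WT cells and 13.95 and 13.91 in TIAR KO cells, a rise of 1.06 ± 0.15 (adjusted p = 0.0157). Jun, an AP-1 subunit, read 14.25 and 14.16 in WT cells and 12.74 and 11.54 in TIAR KO cells, a fall of -2.06 ± 0.39 (adjusted p = 0.0367). NF-kappa B subunits and their inhibitors were not called in either line. The subunit Relb gave -1.12 ± 0.16 in TIA1 KO cells (limma, adjusted p = 0.0669) and the inhibitor Nfkbie -1.67 ± 0.34 (adjusted p = 0.107).

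Markers of cell types moved with the same lines. Beside the marker counts below, 2.05% of all gene names rose and 0.891% fell in TIA1 KO cells. In TIAR KO cells 4.23% rose and 2.76% fell, and between the knockouts 1.27% were higher and 1.55% lower in TIAR KO cells. The summed level of the 10 fibroblast markers was 18.40 and 18.34 (log2 of the sum) in WT cells, 20.14 and 20.09 in TIA1 KO cells and 20.14 and 20.12 in TIAR KO cells, and 5 of the 10 rose in TIA1 KO cells and 8 in TIAR KO cells. Col3a1, a fibrillar collagen, read 9.84 and 9.57 in WT cells, 15.71 and 15.76 in TIA1 KO cells and 15.22 and 16.71 in TIAR KO cells. The sum hides markers that set the knockouts apart. Thy1 read 6.87 and 7.18 in TIA1 KO cells, at background, and 14.83 and 14.79 in TIAR KO cells. Dcn read 8.48 and 9.35 in TIA1 KO cells and 15.70 and 15.85 in TIAR KO cells. Both were called higher in TIAR KO than in TIA1 KO cells by limma (adjusted p = 0.0105 and 0.0132), and the other 8 were not called. Of 9 leukocyte markers, the summed level was 13.69 and 13.62 in WT cells, 14.53 and 14.36 in TIA1 KO cells and 13.51 and 13.53 in TIAR KO cells. That sum followed Itgam, which read 12.14 and 11.70 in WT cells and 13.83 and 13.53 in TIA1 KO cells without a call (adjusted p = 0.064), whereas the median log2 fold change of the 9 was -0.30 in TIA1 KO cells and -0.10 in TIAR KO cells. None of the 9 was called in TIA1 KO cells (3 at an unadjusted p under 0.05 by limma), and Cd14 fell in TIAR KO cells (-1.27 ± 0.18, adjusted p = 0.0136). Between the knockouts, Cd68 was called higher in TIAR KO cells, and Itgam and Cd14 lower (limma, adjusted p = 0.0484, 0.0478 and 0.0397). The defining leukocyte marker Ptprc was at background on every array, as were Emr1 and Lyz2, while Cd68, Cd14 and Itgam were well above background on all 6. Of 5 endothelial markers 0 were called against WT by limma, with 1 at an unadjusted p under 0.05 in each line. Of 5 epithelial markers 3 (Cdh1, Krt8 and Krt18) rose in TIAR KO cells. The part of these differences between the lines in the chemokine changes was not tested.

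All 8 calls in TIA1 KO cells ended when either WT array was left out, when limma called 0 of all 55681 oligos and 10 members were still at an unadjusted p under 0.05. In TIAR KO cells the 13 calls became 0 without the first TIAR KO array (17 members at an unadjusted p under 0.05) and 3 without the second, and 7 and 8 without the first and the second WT array. The TIA1 KO calls numbered 3 without the first TIA1 KO array and 14 without the second.

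**Figure D4:**
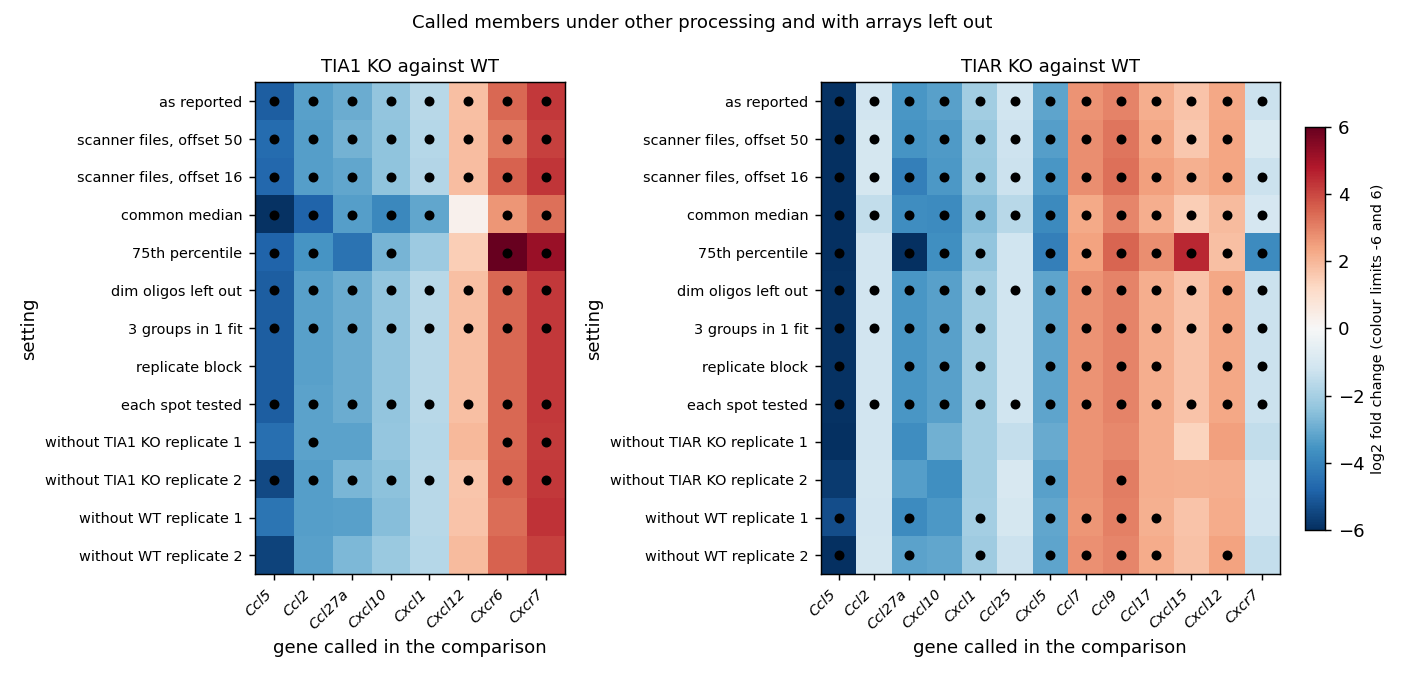
Log2 fold change (colour) of the members called in each knockout against WT, as reported and under each other processing or with 1 array left out (rows); a black dot marks a setting in which the gene was called. The colours keep their direction in every setting, while dots are missing from the replicate block in TIA1 KO cells, from the rows without a WT array in TIA1 KO cells and from the row without the first TIAR KO array.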

How the data were processed

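Per the labels, total RNA of the 3 MEF lines was amplified, labelled with Cy3 and hybridized to mouse whole-genome arrays (Agilent), with 2 arrays per line. The authors deposited scanner files with the intensity of each spot, its local background and its quality flags (Feature Extraction 10.7.3.1, not normalized between arrays), and a table of normalized log2 values. Background correction, loess and quantile normalization are the steps the methods name. The medians of the deposited log2 columns were 7.22 or 7.23, and the columns correlated at 0.997 to 0.999 with values made here from the scanner files, so scale and direction are settled, while the reference of the loess step was not given in the sources used here. Probe names, gene names and positions (mm9) came from the scanner files.

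The deposited log2 values were the main values. Control spots were left out, spots of 1 oligo were averaged, and lmFit and eBayes (limma 3.58.1, R 4.3.3, data.table version 1.17.8) were fitted to the 4 arrays of each comparison over all 55681 oligos without covariates, with Benjamini-Hochberg adjustment. The thresholds were an adjusted p of 0.05 and a fold of 2. A gene was read from its brightest oligo. An oligo was taken as well above background where the scanner software rated at least 50% of its spots on the array so; 16021 to 26295 oligos were, and 15 to 20 members. The number of arrays limits the precision. The methods speak of independent experiments; the labels do not say whether the 2 samples of a line came from separate cultures, and p-values measure the spread between these samples. Replicate numbers did not pair the arrays. The scanner files were also processed with normexp offsets of 50 and 16, 1 loess pass and quantile normalization, by a common array median, and by the processed intensity at its 75th percentile. The fits were tested on simulated data. All members called in a comparison, or well above background on both arrays of a line, are named. Upstream sequences are RefSeq windows of GRCm38.p6, cut to 250 bases (Python 3.11.15, pandas 2.3.3, numpy 2.4.6, matplotlib 3.10.9). Not every member is named or shown. The members and lists were chosen with earlier results of these data known.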

Additional observations from a re-analysis of the deposited data

Results flagged for a closer look

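The direct comparison of TIAR KO with TIA1 KO MEF, a test of the difference between the knockouts, picked out 6 members by their brightest oligos. Their log2 differences (TIAR KO minus TIA1 KO) were 2.15 for Ccl2, 2.04 for Ccl7 and 2.61 for Ccl9, and -3.60 for Cxcl5, -3.59 for Cxcr6 and -5.50 for Cxcr7. Ccl2 fell in both knockouts against WT and fell further in TIA1 KO MEF. Ccl7, Ccl9 and Cxcl5 were called against WT in TIAR KO MEF alone, Cxcr6 in TIA1 KO MEF alone, and Cxcr7 in both with opposite direction. Cxcr6 and Cxcr7 were not well above background in TIAR KO MEF, so their differences are given as limits of at least 12.0-fold and at least 45.4-fold. These limits equal the plain folds. The slide row differs between these lines and cannot be told apart from the genotype. None of the 6 was called when either TIAR KO array was left out (limma, 0 of all oligos; 13 and 12 members at an unadjusted p under 0.05).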

How the results depend on the processing

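Of the changes of single members called in a comparison, 233 recomputed values kept their direction and call, 103 kept their direction and lost the call, and 1 reversed, the Ccl25 oligo that gave 1.23 in TIAR KO cells. The replicate numbers did not pair the arrays (correlations of the replicate differences 0.0721, 0.0252 and -0.0474). With the replicate block the calls were 0 higher and 0 lower in TIA1 KO cells (6 and 6 members at an unadjusted p under 0.05), 4 and 6 in TIAR KO cells, and 0 and 0 between the knockouts (10 and 6). Scaling moved the median of all oligos in TIA1 KO against WT from -0.12 to -0.65 under a common median and to 1.90 at the 75th percentile. With the common median 6 members were higher in TIA1 KO cells and 8 in TIAR KO against TIA1 KO cells. In that fit of TIA1 KO against WT, the members called in the main fit all had the same standard error of 0.477. Its calls, counted among the 233, therefore do not reflect the spread of each gene. Under the same scaling some members changed sign. Ccl7, Cxcl5, Cxcl11, Ccl9 and Ccl17, uncalled in TIA1 KO cells, turned negative (-0.91, -1.01, -1.08, -0.44 and -0.26). At the 75th percentile 3 were lower in TIA1 KO cells, 8 higher in TIAR KO cells, and 0 higher and 5 lower between the knockouts (4 and 29 at an unadjusted p under 0.05). There Ccl8 in TIA1 KO cells was 0.66. With all 3 groups in 1 fit 6 were higher between the knockouts. Leaving out 1 array gave 0 to 8 higher and 0 to 6 lower in TIA1 KO cells (8 and 6 without the second TIA1 KO array), 0 to 4 and 0 to 4 in TIAR KO cells, and 0 to 7 and 0 to 9 between the knockouts (7 and 9 without the second TIA1 KO array); the lone array of a line was taken to vary as much as its counterpart. Over all oligos the TIA1 KO calls were 866 higher and 427 lower, and 5853 and 5293 without the second TIA1 KO array. They were 2046 and 13838 under the common median, 2017 and 127 at the 75th percentile, 1213 and 756 from the scanner files with offset 50 and 1728 and 1825 in 1 fit of all groups. Losses of single calls included Cxcl12 in TIA1 KO cells with the common median (0.27) and Cxcr7 in TIAR KO cells with offset 50 (-0.93). The causes were not tested. No slide block could be fitted, since all arrays lay on 1 slide. Dim oligos have no measured fold below background.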
